A study of Mus musculus with 8 samples.

Results

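The genes described here encode the subunits of the proteasome, together with its regulators and the chaperones that assemble it. Members were taken as the genes whose symbol began with Psma, Psmb, Psmc, Psmd, Psme, Psmf or Psmg in the deposited gene table, which gave 46 of 11364 genes. In the deposited list of genomic sites bound by KLF1, a site belonged to the set when the closest transcription start site given there was that of such a gene. This gave 5 of 5551 sites at 3 genes (Psma3, Psmb11 and Psme2).

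The proteasome is the barrel-shaped protease that degrades proteins tagged with ubiquitin in the cytosol and nucleus. Its 20S core is a stack of alpha and beta rings with the protease sites inside the beta rings, and the 19S cap on its ends binds, deubiquitinates, unfolds and feeds in the substrate. In erythroid cells the ubiquitin-proteasome system removes unpaired globin chains and clears proteins and organelle components as the cells mature.

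The study asked how a mutant of the erythroid transcription factor KLF1, E339K, the mouse counterpart of the mutation behind human congenital dyserythropoietic anemia type IV, differs from the wild type protein in DNA binding and gene expression. All cells were derivatives of K1, an immortalized mouse erythroid line with no functional Klf1, so every group lacked endogenous KLF1. In the K1-E339K-ER lines the mutant was fused to the estrogen receptor ligand-binding domain and moved to the nucleus with 200 nM 4-hydroxytamoxifen (4-OHT), and a wild type fusion (K1-ER) served for comparison. The series held 8 samples, which were 3 newly made RNA samples of K1, 3 of K1-E339K-ER, 1 chromatin immunoprecipitation (ChIP) of KLF1-E339K-ER after 3 h of 4-OHT and 1 input.

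The RNA was labelled with 500 µM 4-thiouridine for 30 min, per the labels (the study's methods state another dose and a longer time), and only the labelled RNA was sequenced, so its level follows recent transcription more closely than total RNA does. Replicates 1 and 2 of K1 were labelled as given 4-OHT, and replicate 3 was labelled as given ethanol, the solvent. The 3 K1-E339K-ER samples were separate clones (1B, 2A and 2B), and the ChIP came from clone 2A alone. The K1-ER libraries came from earlier work of the same group and were not analysed here as samples. The wild type values at the sites likewise rest on libraries that are not samples of this series. A difference between the proteins at a site therefore cannot be told apart from a difference between the experiments.

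The gene table held 1 mean level per gene over all its libraries, and the site table held 1 pooled value per protein. No error between replicates, test or depth per library could therefore be had for any value below, and a difference between pooled values could not be set against the spread between libraries. The levels also average over K1, K1-ER and mutant cells, so they describe this erythroid cell system and not the effect of either protein. All 15 erythroid markers examined were listed, at 3.79 to 9.79 log2 CPM (read counts scaled to the library total), while 0 of 6 lymphoid and 0 of 5 hepatocyte markers were listed. Of the other types, 2 of 6 myeloid markers (0.77 and 1.84 log2 CPM), 3 of 6 megakaryocyte markers (1.79 to 5.30) and 2 of 4 fibroblast markers (-1.69 and 4.53) were listed.

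Binding was read at the sites first. The sequences at 4 of the 5 sites are shown as the 151 bases around the midpoint on the forward strand of mouse build mm9. For the site at the Psme2 start, whose midpoint lies in an exon, only the 30 bases that hold its matches are shown. They are given on the reverse strand, from which Psme2 is read. Capitals mark matches to either of the study's KLF1 consensus sequences. The first, called pyrimidine here, has C or T at base 5 and is the wild type form, spelled NGGGCGGGG, NGGGCGTGG, NGGGTGGGG or NGGGTGTGG. The second, called purine here, has A or G there and is the mutant form, spelled NGGGAGGGG, NGGGAGTGG, NGGGGGGGG or NGGGGGTGG. Both strands were searched, so a match on the reverse strand reads here as its reverse complement.
Psma3 distal site, chr12:72069158-72069308: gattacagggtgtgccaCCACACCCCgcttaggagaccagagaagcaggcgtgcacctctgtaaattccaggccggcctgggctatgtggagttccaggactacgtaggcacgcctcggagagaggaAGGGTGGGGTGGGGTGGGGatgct
Psma3 proximal site, chr12:72069558-72069708: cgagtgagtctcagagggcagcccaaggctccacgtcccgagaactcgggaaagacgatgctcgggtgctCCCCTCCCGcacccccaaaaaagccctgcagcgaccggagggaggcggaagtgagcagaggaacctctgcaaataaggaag
Psmb11 site, chr14:55242324-55242474: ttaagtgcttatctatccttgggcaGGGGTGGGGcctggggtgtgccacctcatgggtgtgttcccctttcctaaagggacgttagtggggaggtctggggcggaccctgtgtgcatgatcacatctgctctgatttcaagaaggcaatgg
Psme2 start site, chr14:56209800-56209829, reverse strand: aAGGGAGGGGGCGTGGctgaGGGGGGTGGg
Psme2 upstream site, chr14:56210198-56210348: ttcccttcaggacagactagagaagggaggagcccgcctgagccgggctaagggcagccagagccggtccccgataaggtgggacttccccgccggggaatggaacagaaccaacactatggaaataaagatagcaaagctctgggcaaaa

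Psma3 encodes an alpha ring subunit of the 20S core, and the intergenic DNA upstream of it held a pair of adjoining sites with opposite preferences. The distal site (chr12:72069027-72069439) lay 6377 bp upstream of the start. Its concentration, the deposited log2 of the mean normalized read number, was 5.64 for wild type KLF1-ER and 1.74 for KLF1-E339K-ER, a difference of 3.90 or 14.9-fold in favour of wild type. The proximal site (chr12:72069476-72069791), 5976.5 bp upstream, had 2.23 for wild type and 4.53 for the mutant, 4.92-fold higher for the mutant. The 2 sites were separated by 36 bp, and their midpoints were 400.5 bp apart. Of the 69 pairs of neighbouring sites at most 50 bp apart in the whole list, 5 (7.25%) joined a site 2-fold higher for wild type to a site 2-fold higher for the mutant, and the Psma3 pair was of this kind.

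The letters at this pair differed as well. The distal site held 4 pyrimidine matches and no purine match. One lay on the reverse strand, 54 bp before the midpoint (GGGGTGTGG), and 3 overlapped in a run on the forward strand centred 56, 61 and 66 bp after it (AGGGTGGGG, then GGGGTGGGG 2 times). The proximal site held a single purine match, CGGGAGGGG on the reverse strand, centred 1.5 bp from the midpoint, and no pyrimidine match. Among all sites, a pyrimidine match within 50 bp of the midpoint was present at 60.7% of those 2-fold higher for wild type and 22.8% of those 2-fold higher for the mutant. For the purine form the shares were 16% and 45.8%. No match of the Psma3 distal site lay wholly within this window. Over the whole site, as counted for the Psma3 pair, the pyrimidine shares were 78.8% and 47.2%. The whole-site purine shares were 33.2% and 69.6%. These shares describe the sites from which the consensus forms were themselves derived, so they are not independent of them.

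Psme2 encodes the beta subunit of PA28, the interferon-inducible ring that caps the 20S core in place of the 19S particle. Its start region also carried an adjoining pair of sites, here 42 bp apart. At the start site (chr14:56209724-56210032), whose midpoint lay in a Psme2 exon 60 bp from the annotated start, the concentration was 3.86 for wild type and 4.56 for the mutant, which is less than 2-fold apart. The deposited distance placed that midpoint 20 bp upstream of its closest start. The site held purine matches (GGGGGGTGG and AGGGAGGGG) and a pyrimidine match (GGGGCGTGG), the latter sharing bases with AGGGAGGGG. All were on the reverse strand and within the 30 bases shown.

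The Psme2 upstream site (chr14:56210075-56210472), 335.5 bp before the start, had 1.91 for wild type and 4.53 for the mutant, 6.15-fold higher for the mutant. It held no match to either form along its whole length. This site lay in the intergenic gap between the divergent starts of Psme2 and Rnf31, which are 607 bp apart. Rnf31 encodes the catalytic subunit of the linear ubiquitin chain assembly complex. The deposited list gave Psme2 as the closest gene of this site. In the annotation used here, however, its midpoint (56210273.5) lay nearer the Rnf31 start (56210545) than the Psme2 start (56209938). Which of these genes the site acts on was not tested. The other PA28 gene, Psme1, starts 12741 bp from Psme2. A further site between them, listed to Emc9, a subunit of the ER membrane protein complex, had 5.57 for wild type and 4.54 for the mutant, a difference of 1.03.

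**Figure D1:**
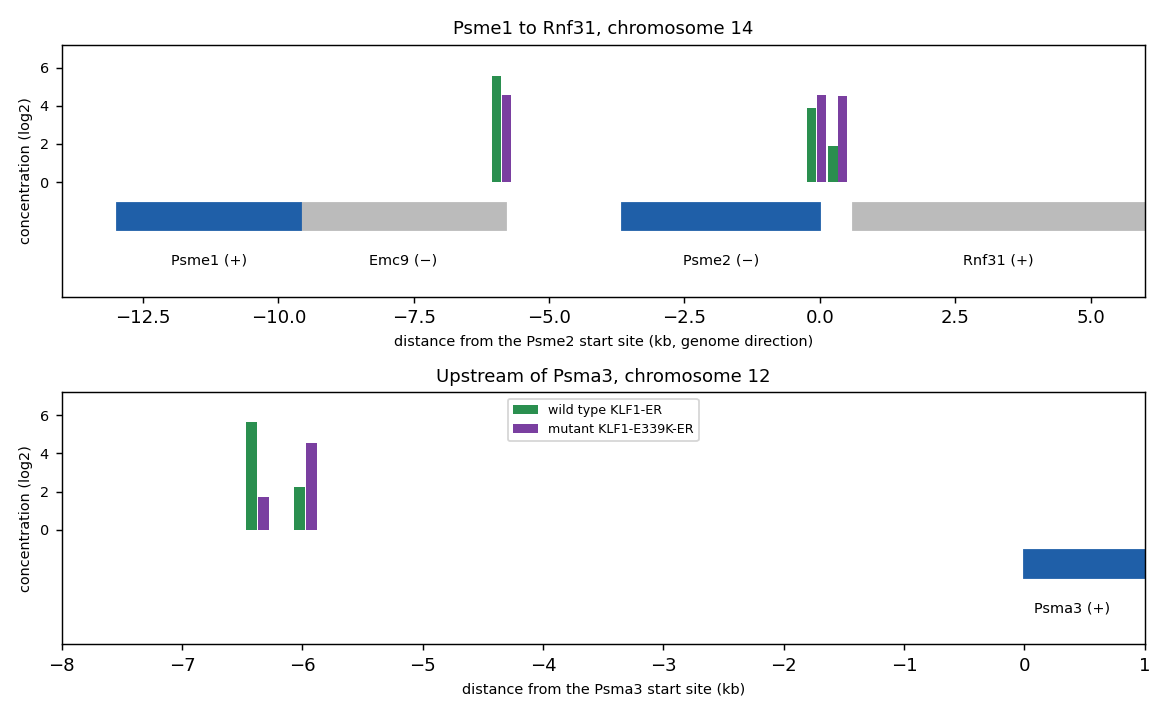
Sites at the Psme1 to Rnf31 locus (top) and upstream of Psma3 (bottom), with distance from the start site in kb on the horizontal axis and log2 concentration for wild type KLF1-ER (green) and KLF1-E339K-ER (purple) as bars above gene bodies (proteasome genes blue, others grey, strand in brackets). At Psma3 the taller bar is wild type at the distal site (5.64 against 1.74) and mutant at the proximal site (4.53 against 2.23), and each pair of bars is centred on the site midpoint, with bar width not to the scale of the site.

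Psmb11 encodes beta5t, the beta subunit of the thymoproteasome of cortical thymic epithelium. Its site (chr14:55242197-55242602), in intergenic DNA 1747.5 bp upstream, was the only one of the 5 with near equal values, at 5.20 for wild type and 5.11 for the mutant, and it held 1 pyrimidine match (GGGGTGGGG, forward strand, 46.5 bp before the midpoint). The gene itself had the lowest level of all members. Psmb5, whose beta5 subunit it replaces in the thymus, starts 7315 bp away, and the same site lay 5567.5 bp from the Psmb5 start.

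Of the 5 sites, 1 was at least 2-fold higher for wild type, against 28.7% of all sites, and 2 were at least 2-fold higher for the mutant, against 61.5% of all sites. The remaining 2 were less than 2-fold apart, as were 9.84% of all sites. None of the 5 was among the strongest for the mutant, since their percentiles among all sites ran from 11.3 to 59.4 for the mutant and from 42.3 to 86.6 for wild type. The low wild type values rest on few distinct levels: 94 sites of the list share the value 1.91 of the Psme2 upstream site exactly, and 71 share the 2.23 of the Psma3 proximal site. The 25 bases centred on each of the 9 motif matches occurred 1 time each on the chromosomes of the assembly.

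**Figure D2:**
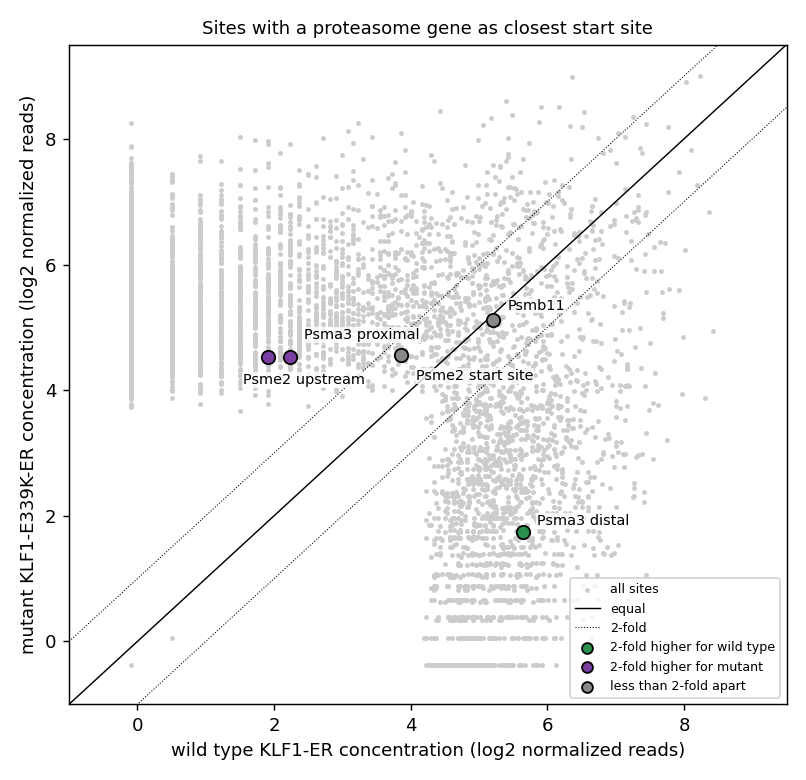
Log2 concentration of wild type KLF1-ER (horizontal) against KLF1-E339K-ER (vertical) for all 5551 sites (grey) and the 5 sites listed to a proteasome gene (coloured by the protein favoured at least 2-fold, dotted lines). The Psma3 distal site (5.64, 1.74) lies below the lower dotted line, the Psma3 proximal and Psme2 upstream sites lie above the upper one, and the Psmb11 site (5.20, 5.11) lies on the line of equality.

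Sites near proteasome genes were few. A listed site within 10 kb was found for 3 of 46 members (6.52%), against 21.2% of all genes. The share was 11.2% for cytosolic ribosomal protein genes, 6.58% for mitochondrial ribosomal protein genes and 6.98% for genes of the respiratory chain and ATP synthase. These other families, taken by symbol, were thus also below all genes. The respiratory genes with a site include Cox6b2 and Ndufa4l2, which had low levels (-0.98 and -2.14 log2 CPM). None of the 17 genes of the 19S particle had a listed site, and of the 14 constitutive 20S genes only Psma3 did. No test of these shares was made.

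The closest-gene rule hides sites that belong to a neighbour by distance, so sites were also counted by distance from each annotated start alone. On this count 7 members (15.2%) had a site within 10 kb, against 26.7% of the 10460 genes with a position. Within 1 kb it was 1 member (2.17%), Psme2, against 16.8%, and within 50 kb 19 members (41.3%) against 48.6%. In percentage points the gap was largest near the start. The other families were also below all genes there. Within 1 kb they stood at 8.57% (cytosolic ribosomal), 5.26% (mitochondrial ribosomal) and 3.66% (respiratory), and within 10 kb at 22.9%, 11.8% and 13.4%. The median distance to the nearest site was 67755 bp for the members and 53830 bp for all genes.

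The 4 members added by this count were all beta ring or PA28 genes. Psmb10, which encodes the inducible beta2i subunit, lay 5007 bp from a site listed to Lcat (chr8:108467061-108467537) with 1.5 for wild type and 7.52 for the mutant, a difference of -6.02. Psmb3, a structural beta subunit gene, lay 3623.5 bp from a site listed to Pcgf2 (chr11:97560868-97561311) with 2.08 and 5.39, a difference of -3.31. Psmb5 was added through the Psmb11 site, and Psme1 through the Emc9 site, 6863 bp away. The Psmb10 value was the largest preference among these, and it was for the mutant.

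**Figure D3:**
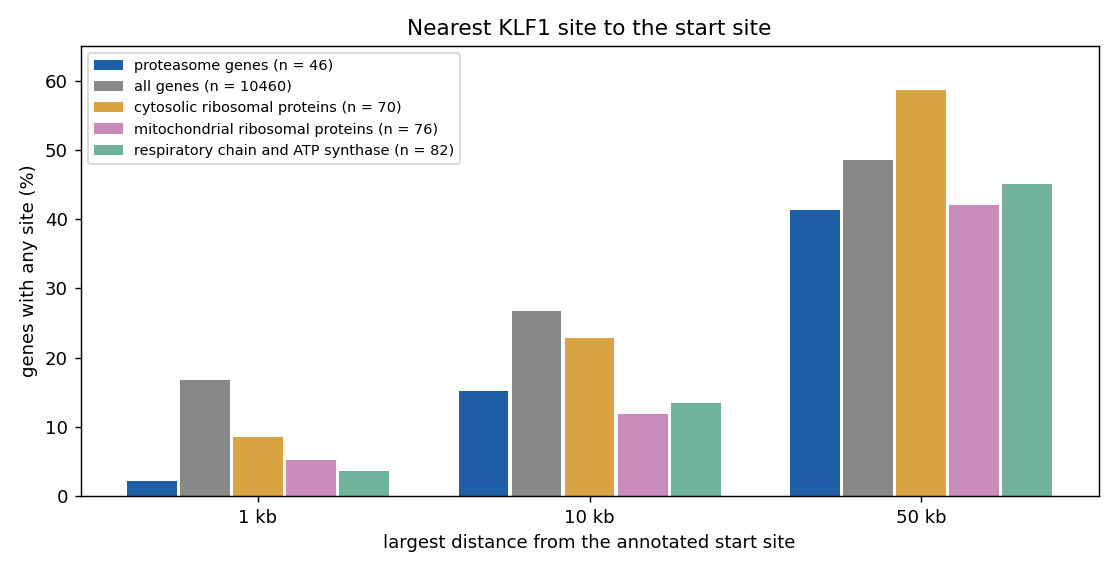
Percentage of genes (vertical) with any site of the list within 1, 10 or 50 kb of the annotated start (horizontal), for proteasome genes, all genes with a position and 3 other gene families. Proteasome genes stand at 2.17, 15.2 and 41.3%, below all genes at each distance (16.8, 26.7 and 48.6%). The 3 other families also stand below all genes at 1 and 10 kb.

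The levels of the genes were read next. Level here is the deposited mean log2 CPM less the log2 of the gene length in kb, and the deposited length is that of the whole gene, introns included. Proteasome genes were well transcribed in these cells, with a median of 2.18 log2 CPM per kb against 0.82 for all genes (quartiles -0.87 and 2.26). On this scale 38 of 46 lay above the median of all genes, and without length correction 31 of 46 did. Per kb of gene length the 46 spanned -2.41 (Psmb11) to 4.99 (Psmb4), with an SD over genes of 1.57. The 31 genes of the constitutive 26S particle had a median of 2.50 and an SD of 1.21, against 2.66 for all genes, and only Psma6 (0.63) of the 31 fell below the median of all genes. The 31 genes ranged over 4.37 log2 units per kb of gene length.

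The orders given below are per kb of whole gene unless another scale is named, and some change on the other scales. Within the alpha ring, which forms the gate of the core, Psma7 was highest (4.34) and Psma6 lowest (0.63), with Psma5 at 3.12, Psma1 at 2.50, Psma4 at 2.47, Psma2 at 1.61 and Psma3 at 1.12. Psma3, the gene with the adjoining KLF1 sites, was next to lowest in its ring per kb of gene length and lowest per kb of exon (3.50), but not without length correction, where Psma6, Psma2 and Psma4 were lower. Within the constitutive beta ring the range was from Psmb1 (0.98) to Psmb4 (4.99), both of them subunits without protease activity. The protease subunits were Psmb6 (beta1, caspase-like) at 3.14, Psmb5 (beta5, chymotrypsin-like) at 2.67 and Psmb7 (beta2, trypsin-like) at 1.48. Psmb3 (3.11) and Psmb2 (2.03) completed the ring.

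The immune counterparts were mostly not listed. Psmb8 and Psmb9, which replace Psmb5 and Psmb6 in the immunoproteasome, had no row in the gene table, nor had Psma8, the testis-specific alpha subunit. Psmb10, which replaces Psmb7, was listed at 2.08, against 1.48 for Psmb7. That order held per kb of whole gene only: without length correction, and per kb of exon, Psmb7 was the higher (98.3 percentile of all genes against 43.1 per kb of exon), so no order of the pair is given. Psmb11 at -2.41 was 5.09 log2 units (34.0-fold) below Psmb5.

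In the 19S particle, the 6 ATPases, which form the ring that unfolds the substrate, had a median of 2.75 and ran from Psmc6 (1.29) and Psmc1 (1.74) through Psmc5 (2.66), Psmc2 (2.84) and Psmc4 (3.30) to Psmc3 (4.60). The 11 non-ATPase subunits had a median of 2.33. The highest were Psmd7 (4.54), partner of the deubiquitinase subunit, Psmd4 (4.36), a ubiquitin receptor, and Psmd3 (3.43), a scaffold subunit of the lid. The lowest were Psmd11 (1.06), also of the lid, Psmd1 (1.08), a large base scaffold, and Psmd12 (1.34). Psmd1 was low on this scale only, and stood at the 86.1 percentile of all genes without length correction and the 79.5 per kb of exon. Psmd14, the deubiquitinase itself, stood at 1.46. It is a long gene, and its rank moved from the 61st percentile per kb of gene to above the 90th on the other scales.

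The regulators spread more widely. Psme3 (PA28 gamma, a nuclear activator) was at 3.73 and Psmf1 (the inhibitor PI31) at 3.11, while the interferon-inducible Psme1 was at 1.33, Psme2 at -0.08 and Psme4 (PA200) at -0.26. Psme3 was thus 2.40 log2 units above Psme1 and 3.81 above Psme2. The assembly chaperones had the lowest median of the subcomplexes with more than 2 genes, 0.49, per kb of gene length. Per kb of exon the activators and inhibitor were lower (3.44 against 4.11). Psmg3 (4.98) and the base chaperones Psmd5 (3.00) and Psmd9 (2.27) were high, and Psmg1 (0.49), Psmg2 (0.42), Psmd10 (0.12) and Psmg4 (-0.67) were low. Psmg3 and Psmg4, whose products work as a pair on the alpha ring, were the highest and lowest of the group on this scale, 5.65 log2 units apart. On both other scales Psmd10 was the lowest chaperone, and without length correction Psmd5 was the highest. Psmc3ip, at 0.97, shares the symbol prefix only: its product acts in meiotic recombination.

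**Figure D4:**
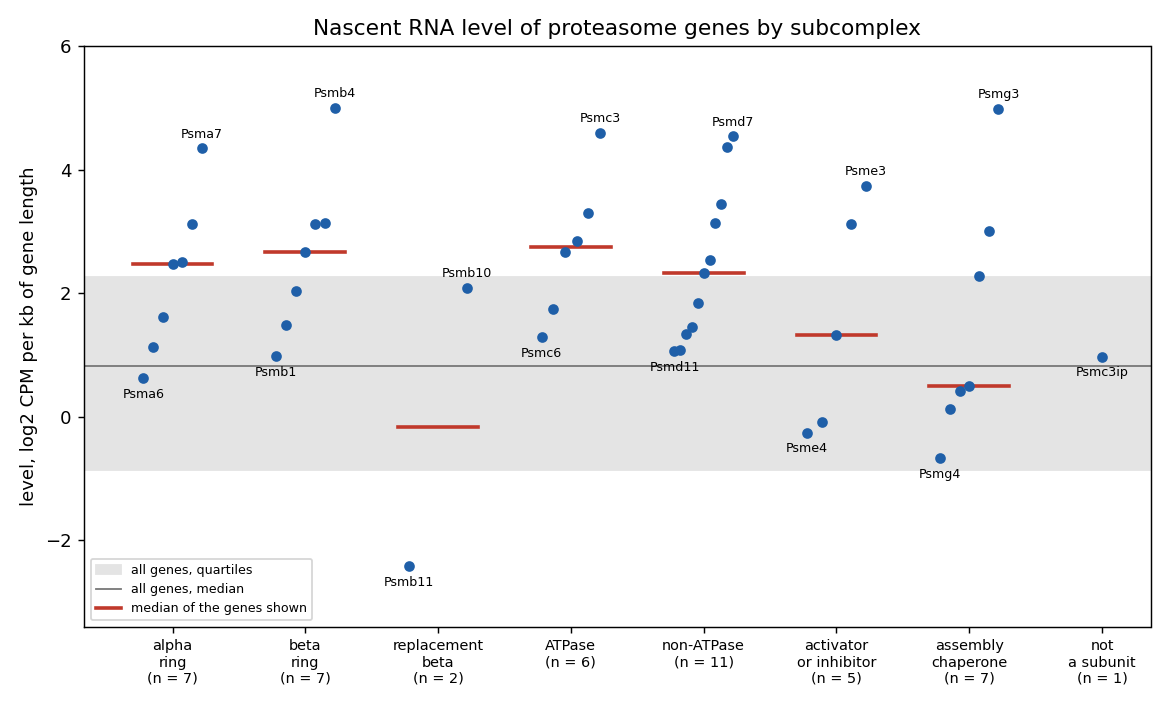
Nascent RNA level (log2 CPM per kb of gene length, vertical) of the 46 members by subcomplex, 1 point per gene, with the group median as a red line and the median and quartiles of all genes in grey. The medians of the alpha, beta, ATPase and non-ATPase groups (2.33 to 2.75) lie above the upper quartile of all genes (2.26), and the chaperone median (0.49) lies below the median of all genes.

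Because the order of single genes depends on the length used, ranks were compared on 3 scales, which were no length correction, whole gene length and summed exon length. Across the members the Pearson correlation of log2 CPM with log2 gene length was 0.51 (46 genes) and that of the level per kb was -0.28, so neither scale removed length. Over all 11364 genes these correlations were 0.28 and -0.52, so shorter genes tended to rank higher per kb of gene length. The members were short, with a median length of 11300.5 bp against 20990 bp for all genes. On all 3 scales, 9 members were above the 75th percentile of all genes: Psma5, Psma7, Psmc3, Psmd3, Psmd4, Psmd5, Psmd7, Psmf1 and Psmg3. Another 20 were above the median on all 3, and 3 were below it on all 3, which were Psmb11, Psmd10 and Psme2. Thus of the 3 genes with a listed site, 2 were in this lowest group, and Psma3 was at the 53.2 percentile without length correction, 55.3 per kb of gene and 49.96 per kb of exon. The members that had a site by distance alone were not in this group. Of these, Psmb3 was above the median on all 3 scales (71.8, 85.2 and 84.2 percentile), and Psmb5, Psmb10 and Psme1 changed sides with the scale. No link between sites and level was tested. In the beta ring, Psmb6 was at the 37.1 percentile without length correction, 85.6 per kb of gene and 51.0 per kb of exon, and Psmb7 at 86.0, 61.4 and 98.3, so their order changed with the scale.

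**Figure D5:**
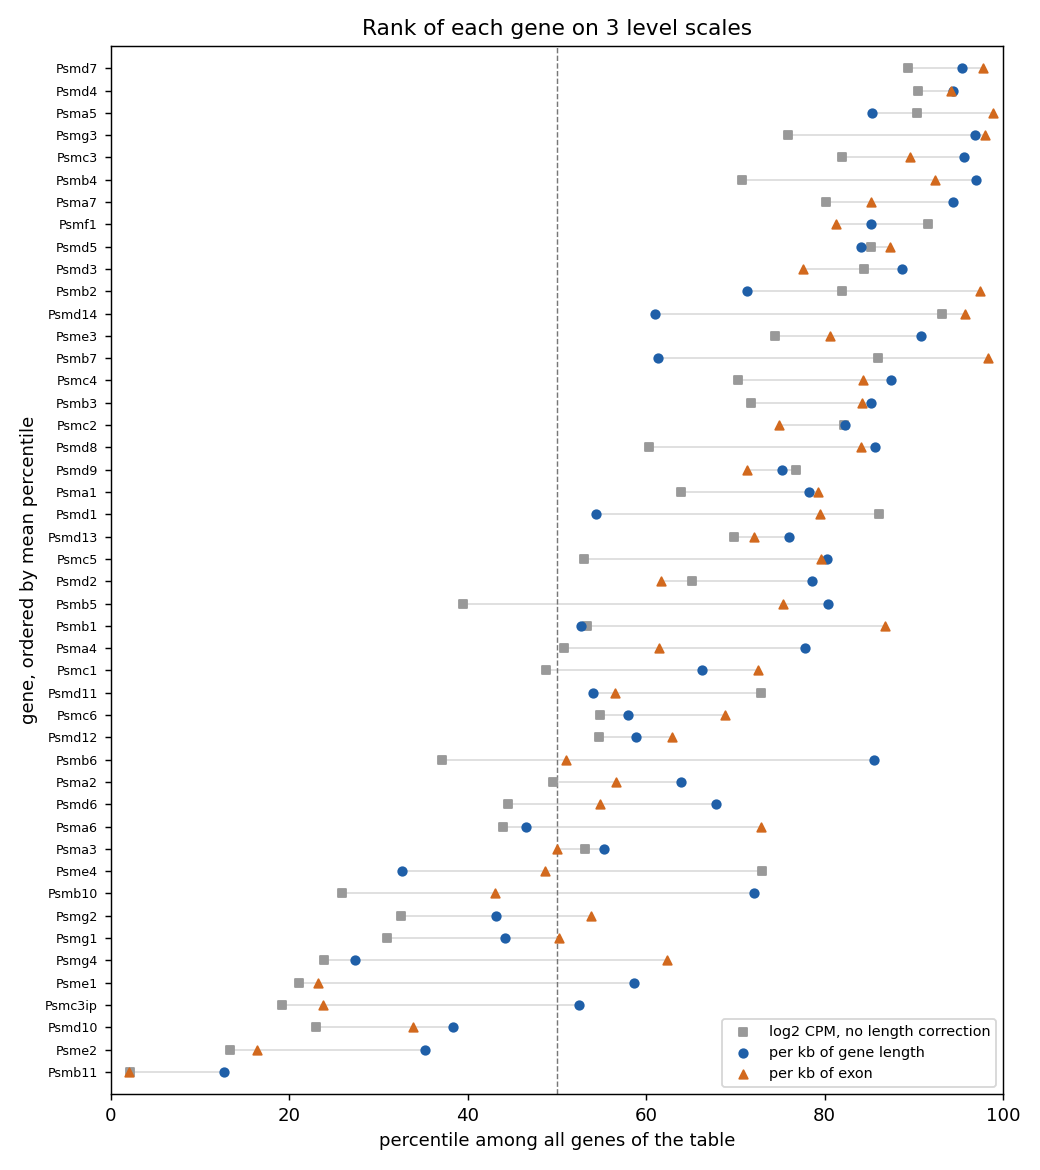
Percentile among all genes (horizontal) of each of the 46 members (vertical, ordered by mean percentile) on 3 scales of level: without length correction (squares), per kb of gene length (circles) and per kb of exon (triangles). Psmd7, Psmd4 and Psma5 are high on every scale, Psmb11 and Psme2 are low on every scale, and genes with long grey lines, such as Psmb6, Psmb10 and Psme4, have no stable rank.

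Beside other large complexes, the 26S genes (median 2.50, SD 1.21) were close to genes of the respiratory chain and ATP synthase (2.44, SD 1.67, 86 genes), above mitochondrial ribosomal protein genes (1.91, SD 1.39, 76 genes) and below cytosolic ribosomal protein genes (5.44, SD 1.08, 80 genes). Without length correction the medians were 6.35 for the 26S genes, 5.28 for the respiratory, 4.88 for the mitochondrial ribosomal and 7.07 for the cytosolic ribosomal genes. Per kb of exon they were 4.96, 4.87, 4.02 and 6.53. The distance to the cytosolic ribosomal genes was thus smaller on these scales. Those genes are short, with a median length of 2937 bp against 11763 bp for the 26S genes. The 26S set leaves out regulators, chaperones and replacement subunits. The other families were taken by symbol alone, and the respiratory set includes assembly factors, so the spreads are not of like sets. All 46 members, also taken by symbol, had a median of 2.18 and an SD of 1.57 per kb. Some overlap between annotated genes bears on these levels. Another annotated gene overlapped 16 of the 46 members, and covered more than 50% of 1, Psmb10, whose whole length lies within a predicted gene on the opposite strand in the annotation (Gm16156).

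Promoters were then read from 250 bp before to 50 bp after the annotated start, on both strands, for all 46 members. Matches to the pyrimidine form were present in 17 (37.0%, against 46.8% of 10460 genes) and to the purine form in 5 (10.9%, against 25.9%). The CCAAT box (CCAAT) was present in 18 (39.1%, against 4078 of the 10460). The GC box (GGGCGG), which is contained in the pyrimidine spelling NGGGCGGGG, was present in 27 (58.7%, against 63.9%). For the purine form the share was 11.4% in cytosolic ribosomal, 19.7% in mitochondrial ribosomal and 18.3% in respiratory genes, and no difference between these shares was tested.

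The core of the antioxidant response element (TGACNNNGC) was searched because NRF1 and NRF2, factors that can raise proteasome genes, bind it. It was present in 8 members (17.4%, against 14.1% of all genes): Psmb2, Psmb5, Psmb6, Psmc6, Psmd7, Psmd9, Psmd12 and Psme4. The share was thus close to that of all genes. Matches upstream of the start, with 10 bases on each side and the core in capitals on the strand of the gene (its reverse complement where it is on the other strand), are shown for subunits of the core, the lid and a chaperone.
Psmb5, 47 bp upstream, chr14:55236861-55236889, reverse strand: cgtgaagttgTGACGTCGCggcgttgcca
Psmb6, 38 bp upstream, chr11:70338840-70338868: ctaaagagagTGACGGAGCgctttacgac
Psmd12, 203 bp upstream, chr11:107340585-107340613: gagatgttctGCTGTGTCAcatttgcccc
Psmd7, 108 bp upstream, chr8:110112472-110112500, reverse strand: tcaatgccaaGCTTCGTCAatagcctaag
Psmd9, 31 bp upstream, chr5:123678158-123678186: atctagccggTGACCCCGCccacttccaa

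Partners of the proteasome that do not carry the Psm prefix were listed for 20 of 21 genes examined (Paaf1 had no row). Among the highest were Ubb (6.18 log2 CPM per kb), a polyubiquitin gene, Adrm1 (5.09), a ubiquitin receptor of the 19S particle, and Ubqln4 (4.79), a shuttle receptor. The lowest were Ngly1 (-1.94), the glycanase that processes NRF1, Txnl1 (0.56) and Usp14 (1.08), both 19S-associated.

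Sites were listed within 10 kb of 6 of these 20 partner genes (30.0%, against 21.2% of all genes), and no test of this share was made. Nfe2l1, which encodes NRF1, had 2 sites, both more than 2-fold higher for wild type (6.34 against 3.21, and 6.42 against 4.16), each close to a different start site of the gene (43.5 and 283 bp from it). Nfe2l2, which encodes NRF2, had 1 site at 107 bp that went the other way, at 5.10 for wild type and 7.26 for the mutant. Nfe2l1 and Nfe2l2, whose products both bind the antioxidant response element, thus had sites of opposite preference. The sites of the shuttle receptor genes Rad23b (2.37 for wild type against 5.10 for the mutant), Ubqln2 (2.08 against 4.55) and Ubqln4 (2.82 against 6.61) were more than 2-fold higher for the mutant. Pomp, the chaperone that completes the 20S core, had a site 59.5 bp from its start with 4.27 for wild type and 4.97 for the mutant, less than 2-fold apart. A site 34943 bp from Txnl1 had 4.61 and 0.05, in favour of wild type.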

How the data were processed

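Nascent RNA-seq of K1 and K1-E339K-ER cells and ChIP-seq of KLF1-E339K-ER were read from the tables the authors deposited. Per the labels and the study's methods, RNA reads were aligned with TopHat2 2.0.10 and analysed with limma, and sites came from MACS2 and GEM calls merged and counted with DiffBind, on mouse build mm9. The log2 values deposited by the authors were the voom mean log2 CPM of each gene over all libraries, and the log2 of the mean normalized read number (concentration) of each protein at each site. The tables also hold columns of the authors' own comparisons (fold changes, t, p and false discovery values), which were not used. No value per library was held, so no test was run.

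Levels, differences of concentrations, distances and motif matches were computed with Python 3.11.15, pandas 2.3.3, numpy 2.4.6 and matplotlib 3.10.9, using the mm9 genome and its GENCODE annotation. A site favoured a protein when at least 2-fold higher. The motif search was tested on simulated sequence with planted matches. The start of a gene was that of the protein-coding transcript whose span was nearest the deposited length. Named genes were all members by rule, with the highest and lowest of each subcomplex, members with a site, and the highest and lowest 3 partners and those with a site. A partner gene of the list is not reported here. The members and lists were chosen with earlier results of these data known. The extra rows named Psmb6 and Psmd3 in the mutant gene table were those of Mpnd and Psd3 in the other table, and were left out.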

Additional observations from a re-analysis of the deposited data

How the results depend on the processing

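No paired analysis was possible because the tables hold no value per library, and for the same reason no replicate could be left out. The alternatives moved values as follows. The median level of the members was 6.06 log2 CPM without length correction and 4.67 log2 CPM per kb of exon, on scales that differ by construction. Members with a site numbered 1 within 1 kb and 7 when any site near an annotated start counted. Member sites favouring the mutant numbered 0 when a concentration of at least 5 was required for either protein. Member sites holding the pyrimidine form numbered 0 within 25 bp of the midpoint, 3 within 100 bp and 3 over the whole site, and those holding the purine form 2 within 100 bp and 2 over the whole site. Reaching 1000 bp upstream, member promoters holding the purine form numbered 20 (43.5%, against 49.4% of all genes), CCAAT 36 (78.3% against 76.1%) and the antioxidant core 14 (30.4% against 33.5%). At the start sites of RefSeq (GRCm38.p6), where 39 members matched, the purine form was in 8 (20.5%, against 30.0% of all genes). The whole-site search and the RefSeq starts were chosen after seeing the data. The median percentile of the members among all genes was 64.5 without length correction and 73.8 per kb of exon, against 73.7. The other 12 alternative values were counts within 1.5 times of those reported. The number of reads behind each value is unknown, so differences of low concentrations cannot be given an error.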
